A study of Sus scrofa with 2 samples.

Results

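CD163, CD209, MARCO and CD300C are genes of surface receptors by which macrophages and related myeloid cells bind their surroundings. They were followed here in single cells of pig skin. The members are the 4 genes with these symbols, out of 31908 genes in the count tables, and each symbol names 1 gene in both libraries. Skin came from the back of male farm pigs and was dissociated with enzymes. A fresh library was made from cells that were not frozen (treatment "none"), and a cryopreserved library from cells frozen in fetal bovine serum with DMSO and thawed. The labels name no strain, age or engineered allele, their extraction protocol describes freezing for both samples, and whether 1 pig gave the cells of both is stated neither there nor in the study's methods. There is 1 library per condition, so no test between conditions is possible, and every difference below describes these libraries.

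CD163 is a scavenger receptor that clears complexes of haptoglobin and haemoglobin, and in pigs it is also known as an entry receptor of a common porcine virus. CD209 is a C-type lectin that binds mannose- and fucose-bearing sugars, and MARCO is a class A scavenger receptor that binds bacteria and inhaled or injected particles. CD300C is an activating immunoglobulin-like receptor of the CD300 family, which signals through adaptor proteins. C1q, the first component of the classical complement pathway, is made in most tissues by resident macrophages, and its genes C1QA and C1QB served to gate them.

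In the Sscrofa11.1 genome the CD163 gene (ENSSSCG00000033146) lies on chromosome 5, from 63300200 to 63334497. CD209 (ENSSSCG00000013579) lies on chromosome 2, from 71394414 to 71397711. MARCO (ENSSSCG00000015716) lies on chromosome 15, from 24502935 to 24541286, and a RefSeq gene on the opposite strand, LOC100516467, overlaps it. CD300C (ENSSSCG00000017236) lies on chromosome 12, from 6632078 to 6635924, beside other CD300 genes that resemble it, so some of its reads may have been lost to or gained from these neighbours. The coordinates are those of RefSeq on the same build, and all 4 genes are on the plus strand.

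MARCO and CD300C were both highest in the same small cluster, and CD163 was spread over several myeloid clusters. The 250 bases before the annotated start of these genes are therefore shown for reference. CD209 is left out because its RefSeq model begins at the first coding base, so that its start of transcription is not known from it. Capitals mark GAGGAA, the core to which the myeloid factor PU.1 is known to bind, and TGCTGA, the core of MAF recognition elements, each searched on both strands.
CD163, chr5:63299950-63300199, plus strand: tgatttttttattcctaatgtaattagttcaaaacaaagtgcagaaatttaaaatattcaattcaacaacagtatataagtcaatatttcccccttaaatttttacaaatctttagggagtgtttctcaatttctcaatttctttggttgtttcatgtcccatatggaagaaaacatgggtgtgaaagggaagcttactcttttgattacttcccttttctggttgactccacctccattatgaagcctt
MARCO, chr15:24502685-24502934, plus strand: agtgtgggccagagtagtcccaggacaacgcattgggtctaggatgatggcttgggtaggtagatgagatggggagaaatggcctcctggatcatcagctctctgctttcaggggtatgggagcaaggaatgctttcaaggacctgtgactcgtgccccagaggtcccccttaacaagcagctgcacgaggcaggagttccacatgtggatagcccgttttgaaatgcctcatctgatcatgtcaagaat
CD300C, chr12:6631828-6632077, plus strand: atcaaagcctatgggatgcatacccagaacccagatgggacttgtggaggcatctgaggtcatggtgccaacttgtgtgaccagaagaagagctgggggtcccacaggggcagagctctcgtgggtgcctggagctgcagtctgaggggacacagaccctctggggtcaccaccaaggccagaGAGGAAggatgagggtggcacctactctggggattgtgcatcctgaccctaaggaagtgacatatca
Only the CD300C window held a match among these 3, a GAGGAA that begins 67 bases before the start. GAGGAA is found in 22.0% of the 19556 windows of the same length before RefSeq protein-coding genes, and TGCTGA in 12.6%, so a match or its absence is a description of these letters and no more. The CD163 window is poor in G and C (31.6%), while MARCO has 52.8% and CD300C 57.2%.

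The fresh table holds 4379 barcodes and 53271738 unique molecular identifiers (UMIs, each standing for 1 captured transcript), and the cryopreserved one holds 4860 barcodes and 42217632 UMIs. The study's limits on genes, UMIs and mitochondrial share left 2775 fresh and 4223 cryopreserved cells. Cells with at least 10 UMIs of C1QA and C1QB together, called gated cells below, numbered 117 in the fresh library (4.22%, exact 95% binomial interval 3.50 to 5.03%) and 221 among cryopreserved cells (5.23%, interval 4.58 to 5.95%). All intervals cover counting error only. The gated cells had a median of 11898 UMIs in fresh and 9043 in cryopreserved cells, and the remaining cells 10948.5 and 7903. The gate was checked with a macrophage marker list: its 7 measured genes made up 0.658% of the UMIs of fresh gated cells and 0.738% of cryopreserved ones, against 0.00898% and 0.00870% in the remaining cells. One of the 7, C1QC, is the third C1q chain and not independent of the gate. Without it the other 6 (CSF1R, CD68, MRC1, MSR1, FOLR2 and VSIG4) made up 0.341% of the UMIs of gated cells in both libraries, against 0.00849% and 0.00811% in the rest. Fibroblast genes took 0.0493% and 0.0599% in gated cells, against 6.001% and 6.16% outside. Keratinocyte, mural and monocyte or neutrophil lists were lower inside as well, but not every list was. T or NK cell genes took 0.139% and 0.199% inside, against 0.0250% and 0.0284% outside. In each library 4 of these 7 genes had no UMI in gated cells. The median gated cell had 0.00914% and 0.0261%, so the excess lay in a part of the genes and cells. Dendritic genes took 0.0376% and 0.0494%, against 0.0209% and 0.0259%. Lymphatic, B and Langerhans lists were also higher inside in both libraries. Nearly all of the lymphatic share inside (0.0132% and 0.0264%) was LYVE1, which is also in the tissue macrophage list. It had 129 and 261 UMIs per 1000000 inside, against 2.20 and 2.02 outside. In each library 3 of 5 B markers had no UMI in gated cells. The Langerhans marker CD207 was lower inside, with 0 and 5.31 UMIs per 1000000, against 10.7 and 13.3 outside. Among the filtered cells 5 barcodes occurred in both libraries, and none of them was gated. The doublet caller marked 8 cells in each library, 3 of them gated in all, a share too small to count as a working removal of doublets.

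Most CD163 and CD209 transcripts were inside the gate, and most MARCO transcripts of the cryopreserved library were not. For CD209, 1713 of 1810 fresh UMIs (94.6%, interval 93.5 to 95.6%) and 5846 of 5969 cryopreserved UMIs (97.9%, interval 97.5 to 98.3%) came from gated cells. For CD163 the counts were 568 of 710 (80.0%, interval 76.9 to 82.9%) and 662 of 828 (79.95%, interval 77.1 to 82.6%). By UMIs CD209 was therefore the more strictly tied to C1q of this pair in both libraries, with intervals that do not overlap. By cells, 65.7% of fresh cells with CD163 (interval 57.3 to 73.5%) and 68.75% with CD209 (interval 59.96 to 76.6%) were gated, and these intervals overlap. In the cryopreserved library the shares were 63.2% (interval 57.1 to 69.1%) and 78.2% (interval 72.3 to 83.4%), which do not overlap. CD300C had 143 of 236 UMIs in fresh gated cells (60.6%, interval 54.0 to 66.9%) and 228 of 526 in cryopreserved ones (43.3%, interval 39.1 to 47.7%). MARCO had 17 of 25 (68%, interval 46.5 to 85.1%) and 15 of 81 (18.5%, interval 10.8 to 28.7%). The intervals of CD300C do not overlap between the libraries, while those of CD163 overlap almost entirely. Counted by cells, 68.9% of fresh cells with CD300C (interval 58.3 to 78.2%) and 62.4% of cryopreserved ones (interval 54.1 to 70.2%) were gated, and these intervals overlap. The fresh MARCO share rests on 1 gated cell with 15 of the 17 UMIs. Without the gated cell richest in MARCO it was 2 of 10 (20%, interval 2.52 to 55.6%) in the fresh library and 8 of 74 (10.8%, interval 4.78 to 20.2%) in the cryopreserved one, so no difference between the libraries was detectable for MARCO.

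Scaled to CPM (counts divided by all UMIs of the cells and multiplied by 1000000), CD163, CD209 and CD300C had a higher level in gated cells than in the rest. CD209 had 1245 CPM inside and 3.14 outside in the fresh library, a ratio of 397 (interval 323 to 492), and 2823 and 3.55 CPM in the cryopreserved library, a ratio of 794 (interval 664 to 958). CD163 had 413 and 4.60 CPM, a ratio of 89.9 (interval 74.6 to 109), and 320 and 4.80 CPM, a ratio of 66.7 (interval 56.1 to 79.5). For CD300C the ratios were 34.5 (interval 26.4 to 45.3) and 12.8 (interval 10.7 to 15.2). For MARCO they were 47.7 (interval 19.5 to 128) and 3.799 (interval 2.01 to 6.73), but without the gated cell richest in MARCO they fell to 5.67 (interval 0.586 to 28.4) and 2.03 (interval 0.843 to 4.25), which give no direction. On the scale of log2(CPM + 5), 3 of the 4 members, all but MARCO, were at least 2-fold higher inside the gate in both libraries, where 6.65% of all 14443 genes with at least 50 UMIs passed the same limit and 15.3% passed it downwards.

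Related genes were read from lists in the same way. Of 11 other scavenger receptor genes measured, 9 were at least 2-fold higher in gated cells of both libraries and 1 (SCARA3) was lower. Among them SCARB1, a receptor for high-density lipoprotein, had 699 CPM inside and 290 outside in the fresh library, SCARB2, a lysosomal membrane protein, had 671 and 90.8, and the macrophage protein CD68 had 577 and 8.45. Of 9 other lectin genes, 3 were higher (MRC1, CLEC5A and SIGLEC1) and MRC2 was lower. LGALS3, a galactose-binding lectin, had the highest level of this list, with 1257 CPM inside and 735 outside in the fresh library, and 2153 and 841 CPM in the cryopreserved one, so it was 2-fold higher in the cryopreserved library only. MRC1, the mannose receptor, had 761 CPM inside and 13.4 outside in the fresh library and 575 and 7.63 in the cryopreserved one. Of 5 CD300 and paired receptor genes, 4 were higher and none was lower. TYROBP and FCER1G, adaptors for activating receptors, had 1153 and 996 CPM inside in the fresh library, and CD300LB, another CD300 receptor, had 8.72 inside and 0.259 outside. Of 6 genes of ligands and partners of the members, 3 were higher, namely HMOX1, which breaks down haem, the cytokine IL10 and its receptor IL10RA. The median log2 ratio of the scavenger receptor list was 2.24 in fresh and 2.04 in cryopreserved cells, against -0.20 and -0.25 over all genes measured.

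Detection per cell followed the count of C1q. CD163 was detected, with at least 1 UMI, in 94 of 117 fresh gated cells (80.3%) and 165 of 221 cryopreserved ones (74.7%), and CD209 in 88 (75.2%) and 176 (79.6%). CD300C was detected in 62 (53.0%) and 93 (42.1%), and MARCO in 2 and 3. With each cell thinned to 1000 UMIs, which leaves out 27 fresh and 32 cryopreserved cells, the shares in gated cells were 32.8% and 21.3% for CD163, 52.6% and 62.9% for CD209, and 9.48% and 5.88% for CD300C. In cells with 200 or more C1q UMIs, CD163 was present in 21 of 21 fresh and 45 of 45 cryopreserved cells, and CD209 in 20 of 21 and 45 of 45. In cells with 5 to 9 C1q UMIs, just under the gate, CD163 was still found in 10 of 22 and 18 of 32 cells and CD209 in 13 of 22 and 16 of 32. In cells with no C1q UMI the shares were 1.10% and 1.60% for CD163 and 0.706% and 0.654% for CD209. Cells with more C1q also had more UMIs in all, from a median of 7308.5 in fresh cells with 10 to 49 C1q UMIs to 17078 at 200 or more, and from 5038 to 12654 in cryopreserved cells.

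**Figure D1:**
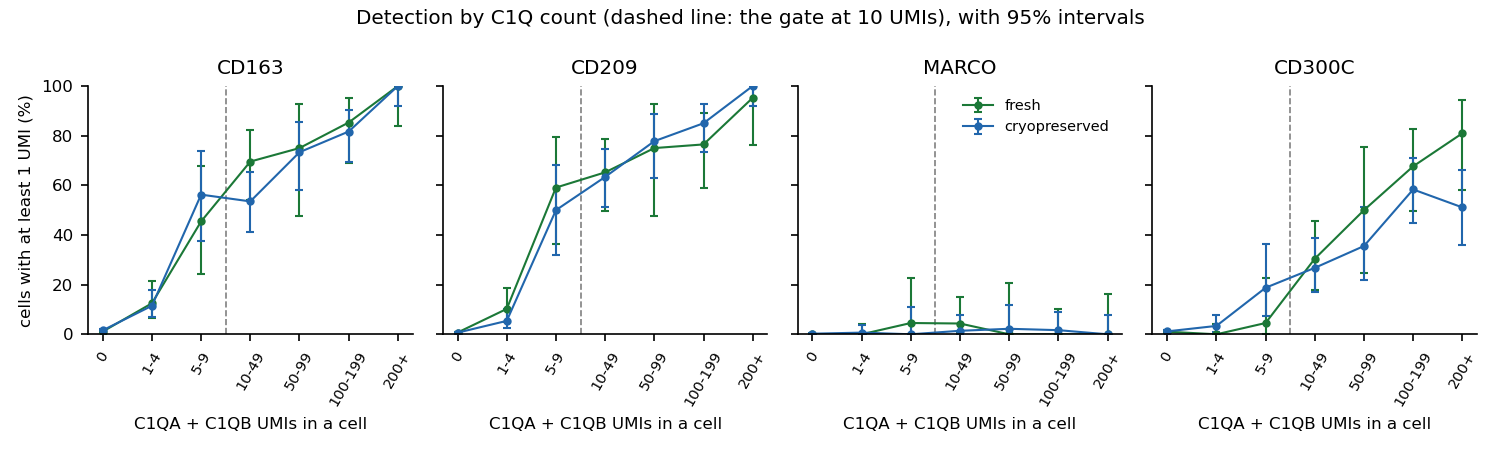
Share of cells with at least 1 UMI of each gene (y axis, %) against the C1QA + C1QB UMIs of the cell (x axis, 7 ranges), for the fresh (green) and cryopreserved (blue) library, with exact 95% binomial intervals as bars and the gate as a dashed line. CD163 and CD209 reach 95.2 to 100% in the highest range, CD300C reaches 81.0% and 51.1%, and MARCO stays at or under 4.55% throughout.

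The level in CPM, which does not depend on detection, was read over the C1q ranges from 10 UMIs upwards. CD209 had 704 CPM in fresh cells with 10 to 49 C1q UMIs, 658 at 50 to 99, 943 at 100 to under 200 and 2424 at 200 or more. In the cryopreserved library it had 676, 1950, 2853 and 4929 CPM in the same ranges. The libraries were thus alike in the lowest range and differed by more than 2-fold in each of the others. The ranges are raw C1q counts and were not matched for depth. The median was 15069 UMIs in fresh and 10429 in cryopreserved cells at 100 to under 200, and 17078 and 12654 at 200 or more. Gated cells of clusters 11 and 20, which had no CD209, were not left out. CD163 went from 412 CPM in the lowest of these ranges to 535 in the highest in the fresh library, and from 200 to 448 in the cryopreserved one. In the fresh library 1 cell with 12 C1q UMIs held 39 of the 147 CD163 UMIs of the lowest range. CD300C had 112 and 106 CPM at the ends of this scale in the fresh library, and 101 and 72.4 in the cryopreserved one. The lowest range included gated cells of cluster 20, described below, which were rich in CD300C. In the fresh library 4 such cells held 27 of the 40 CD300C UMIs of that range. In the cryopreserved one such cells held 4, 3, 7 and 10 of its 46. The CD300C values therefore do not give a trend within 1 kind of cell. The fresh range from 50 to 99 holds 16 cells only.

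In gated cells the cryopreserved library had more CD209 than the fresh one, somewhat less CD163 and about the same CD300C. Per cell, CD209 ranged from 0 to 12712 CPM in fresh gated cells, with a median of 608 and quartiles of 51.6 and 2093. In cryopreserved gated cells it ranged from 0 to 11343 CPM, with a median of 1954 and quartiles of 188 and 4423. The ranges overlap almost entirely, and the difference lies in the middle of the distribution: 39.3% of fresh and 56.6% of cryopreserved gated cells had 10 or more CD209 UMIs. Summed over gated cells and scaled with TMM factors, CD209 had 1208 CPM in fresh and 2911 in cryopreserved cells, a difference of 1.27 on the log2 scale (interval 1.19 to 1.35), or 2.41-fold. From the most positive value downwards it ranked 52 among the 6328 genes with at least 50 UMIs in gated cells, of which 1.8% were higher by at least 1 on the log2 scale and 1.91% lower. The difference was 1.20 (interval 1.12 to 1.27) in the gated cells of the macrophage-like cluster alone, and 1.32 without the cell that held most CD209 in each library.

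CD163 ranged from 0 to 3782 CPM per fresh gated cell, with a median of 338, and from 0 to 2206 CPM per cryopreserved gated cell, with a median of 279. Its summed level was 400.4 CPM in fresh and 330 CPM in cryopreserved cells, a log2 difference of -0.28 (interval -0.44 to -0.12). With the gate at 20 UMIs of C1q this became -0.09 (interval -0.26 to 0.09), so no difference was detectable among the cells with more C1q. That gate also leaves out the fresh cell richest in CD163, which had 12 C1q UMIs and held 39 of the 568 fresh CD163 UMIs. Over all 6328 genes the median size of the log2 difference was 0.28. CD300C had 101 and 114 CPM, a log2 difference of 0.17 (interval -0.14 to 0.48). MARCO had 17 and 15 UMIs in all gated cells, a log2 difference of -0.68 (interval -1.79 to 0.41), and 15 of the 17 fresh UMIs were in 1 cell. Without the top cell of each library the difference was 1.498 (interval -0.83 to 4.77), so these counts give no direction for MARCO.

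**Figure D2:**
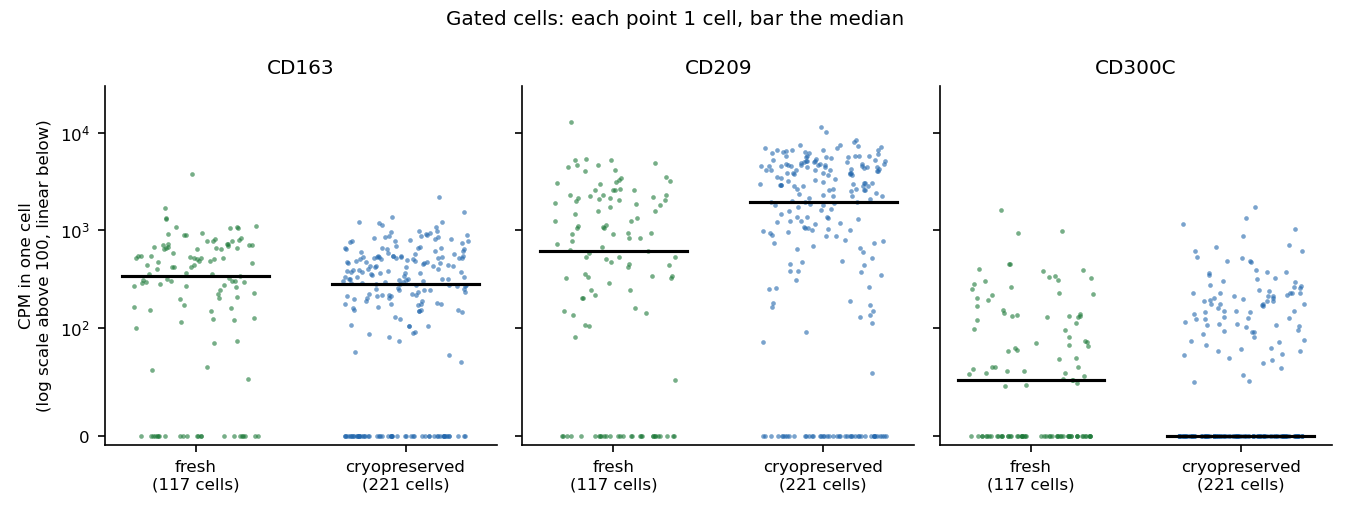
Level of CD163, CD209 and CD300C in each gated cell (y axis, CPM, logarithmic above 100 and linear below), by library (117 fresh and 221 cryopreserved cells), with 1 point per cell and the median as a bar. The CD209 median stands at 608 CPM in fresh and 1954 in cryopreserved cells, the CD163 medians at 338 and 279, and the cryopreserved CD300C median at 0.

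Few genes of the other lists differed as much between the libraries as CD209. Over all 6328 genes, 1.8% were higher in the cryopreserved library by at least 1 on the log2 scale and 1.91% lower. At such shares few or none would be met in lists this short, so the counts describe these lists only. None of 9 other scavenger receptors, 4 other lectins or 3 CD300 and paired receptor genes with at least 50 UMIs differed by 1 or more on the log2 scale, and the median log2 differences of these lists were 0.00045, 0.019 and 0.40, against 0.013 over all genes. MRC1 differed by -0.32 (interval -0.44 to -0.19), MSR1, a class A scavenger receptor like MARCO, by -0.46 (interval -0.63 to -0.29), and LGALS3 by 0.86 (interval 0.78 to 0.95). Among ligands and partners, HMOX1 differed by 0.95 (interval 0.84 to 1.06) and IL10 by -0.79 (interval -1.06 to -0.53), and none of the 6 reached 1. In the tissue macrophage list, 1 of 11 genes did, the hyaluronan receptor LYVE1, at 1.11 (interval 0.86 to 1.36). In the dendritic list 1 of 9 did, FSCN1, which bundles actin, at 1.30 (interval 0.87 to 1.74). Both intervals overlap that of CD209. C1QA and C1QB, which set the gate, differed by 0.24 and 0.55.

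CD163 and CD209 were detected in the same cells more often than their separate frequencies give. In the fresh library 79 gated cells had both, 15 had CD163 alone, 9 had CD209 alone and 14 had neither, a log2 odds ratio of 3.03 (interval 1.59 to 4.48). In the cryopreserved library the counts were 152, 13, 24 and 32, a log2 odds ratio of 3.96 (interval 2.84 to 5.08). Outside the gate the log2 odds ratios were 5.11 (interval 4.04 to 6.18) and 5.28 (interval 4.40 to 6.16), from 13 and 21 cells with both. There 2582 of 2658 fresh and 3878 of 4002 cryopreserved cells had neither gene, and CD163 with CD300C also gave 4.36 and 4.27. The values outside the gate therefore cannot separate pairing of CD163 and CD209 from the mixture of cell types. Cells of 1 library are not replicates, and they differ in depth. With cells thinned to 1000 UMIs the values in gated cells were 0.46 (interval -0.67 to 1.59) and 0.60 (interval -0.41 to 1.60), so at that depth no association was detectable inside the gate. Outside the gate they were 6.55 and 7.15 after thinning, where only 9 fresh and 25 cryopreserved cells still had CD163, and 10 and 21 had CD209. Within gated cells of the macrophage-like cluster the values were 1.70 (interval -0.46 to 3.86) and 2.14 (interval 0.61 to 3.66). Gated cells of clusters 11 and 20, described below, had no CD209. They gave 10 of the 14 fresh and 25 of the 32 cryopreserved gated cells with neither gene. The values over all gated cells therefore cannot separate pairing from the mixture of cell types either.

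**Figure D3:**
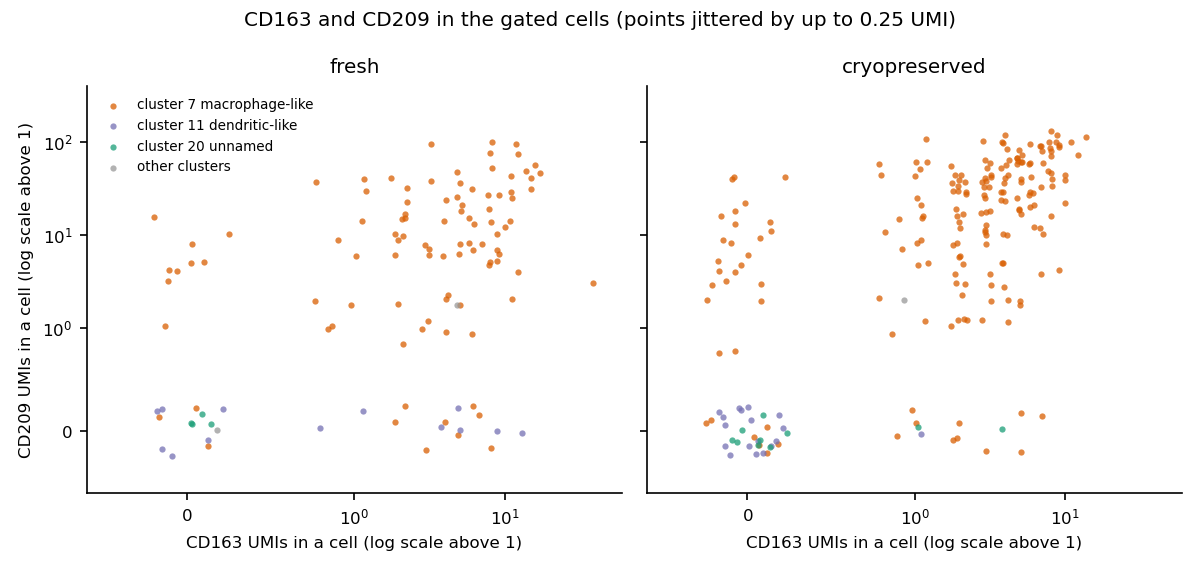
CD163 UMIs (x axis) against CD209 UMIs (y axis) in each gated cell, both logarithmic above 1, for the fresh and cryopreserved library, with points jittered and coloured by cluster. Cells with CD209 are nearly all of the macrophage-like cluster, while gated cells of clusters 11 and 20 lie on the line at 0 CD209 UMIs.

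Inside the gate CD300C showed no association with CD163 or CD209 that held in both libraries. Its log2 odds ratio with CD163 was 0.06 (interval -1.26 to 1.38) in the fresh and -0.90 (interval -1.78 to -0.02) in the cryopreserved library, and thinning turned the latter to 0.77 (interval -0.997 to 2.54). With CD209 it was -0.44 (interval -1.66 to 0.79) and -0.66 (interval -1.61 to 0.29). All of CD163, CD209 and CD300C were found together in 43 fresh gated cells (36.8%) and 59 cryopreserved ones (26.7%), while CD163 and CD209 without CD300C or MARCO were found in 36 (30.8%) and 92 (41.6%). No member was detected in 4 fresh (3.42%) and 13 cryopreserved (5.88%) gated cells.

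Clusters were formed from all filtered cells without using the members, C1QA or C1QB. Cluster 7 (139 fresh and 232 cryopreserved cells) had 7 of 7 measured macrophage markers raised and is called macrophage-like. Cluster 11 (107 and 183 cells) had 4 of 6 dendritic and 3 of 3 Langerhans markers raised and is called dendritic-like. Cluster 20 (15 and 44 cells) had 3 macrophage and 3 monocyte or neutrophil markers raised and stays unnamed, led by TBXAS1, which makes thromboxane, and ARG1, an arginine-degrading enzyme. Of the gated cells, 98 fresh and 192 cryopreserved ones were in cluster 7, 13 and 18 in cluster 11, and 4 and 10 in cluster 20. The other 21 clusters held 2514 fresh and 3764 cryopreserved cells.

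CD209 was nearly confined to cluster 7. It had 1792 of its 1810 fresh UMIs (99.01%) and 5940 of its 5969 cryopreserved UMIs (99.5%) there, at 1335 CPM (interval 1274 to 1398) and 3141 CPM (interval 3062 to 3222). In cluster 11 it had 3 and 4 UMIs, or 1.84 and 2.09 CPM, and in cluster 20 it had 0 and 1. In the other 21 clusters 14 fresh cells (0.557%, interval 0.305 to 0.933%) and 20 cryopreserved cells (0.531%, interval 0.325 to 0.819%) had a CD209 UMI, at median depths of 10919.5 and 7901.5 UMIs. They held 15 and 24 UMIs in all, and a share this low in cells of other types is read as background. The shares of 1.87% and 2.19% in cluster 11 had intervals of 0.227 to 6.59% and 0.599 to 5.50%, which reach down to or near that background.

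CD163 was highest in cluster 7 and was also above background in the other myeloid clusters. It had 445 CPM (interval 410 to 482) and 371 CPM (interval 344 to 399) in cluster 7, and 143 CPM (interval 89.6 to 217) and 82.6 CPM (interval 55.3 to 119) in cluster 20. In cluster 11 it had 52.1 CPM (interval 41.6 to 64.4) and 48.0 CPM (interval 38.7 to 58.8). The order of clusters 20 and 11 is separated by these intervals in the fresh but not in the cryopreserved library, and in cluster 20 a few cells carried most of it: 16 of 22 fresh and 13 of 29 cryopreserved UMIs were in 1 cell. CD163 was detected in 30.8% and 34.97% of cluster 11 cells and in 2 (0.0796%) and 5 (0.133%) cells of the other 21 clusters. The cells outside the gate that held CD163 therefore came from several places. Cluster 7 gave 50.7% of these UMIs in fresh and 27.7% in cryopreserved cells, cluster 11 gave 33.1% and 54.8%, and cluster 20 gave 15.5% and 14.5%.

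CD300C was highest in cluster 20. It had 442 CPM there (interval 343 to 560) in fresh and 888 CPM (interval 793 to 993) in cryopreserved cells. Cluster 7 had 75.2 CPM (interval 61.3 to 91.4) and 80.4 CPM (interval 68.1 to 94.2), and cluster 11 had 34.9 CPM (interval 26.4 to 45.2) and 30.2 CPM (interval 23.0 to 39.1). The order of the 3 clusters was the same in both libraries, with no overlap of neighbouring intervals. CD300C was detected in 12 of 15 fresh and 42 of 44 cryopreserved cells of cluster 20, in 37.4% and 34.1% of cluster 7, and in 0.159% and 0.106% of the other 21 clusters. Although it has few cells, cluster 20 held 28.8% of all CD300C UMIs in fresh and 59.3% in cryopreserved cells. Within cluster 7, CD300C was present in 51 of 98 fresh and 75 of 192 cryopreserved gated cells, and in 1 of 41 and 4 of 40 cells below the gate. CD209 was detected in 87 of 98 and 175 of 192 gated cells of cluster 7, and in 25 of 41 and 25 of 40 below the gate. By level CD209 went from 1542 CPM inside to 348 below the gate in the fresh library, and from 3336 to 689 in the cryopreserved one. The CD300C level went from 89.2 to 8.598 CPM in the fresh library. In the cryopreserved one it went from 81.6 to 64.6 (interval 29.5 to 123), and a change in level was not detectable. That lower level rests on 9 UMIs, 6 of them in 1 cell. By detection the cryopreserved shares were 39.1% (interval 32.1 to 46.3%) and 10% (interval 2.79 to 23.7%), which do not overlap. Detection also depends on the depth of a cell, and depth was not matched across the gate here. In the same cryopreserved cells CD163 had overlapping levels, 374 CPM (interval 346 to 404) inside and 330 (interval 242 to 440) below the gate. Its detection still went from 83.9% to 55%. The cryopreserved detection shares therefore cannot separate a change in CD300C from a difference in depth.

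**Figure D4:**
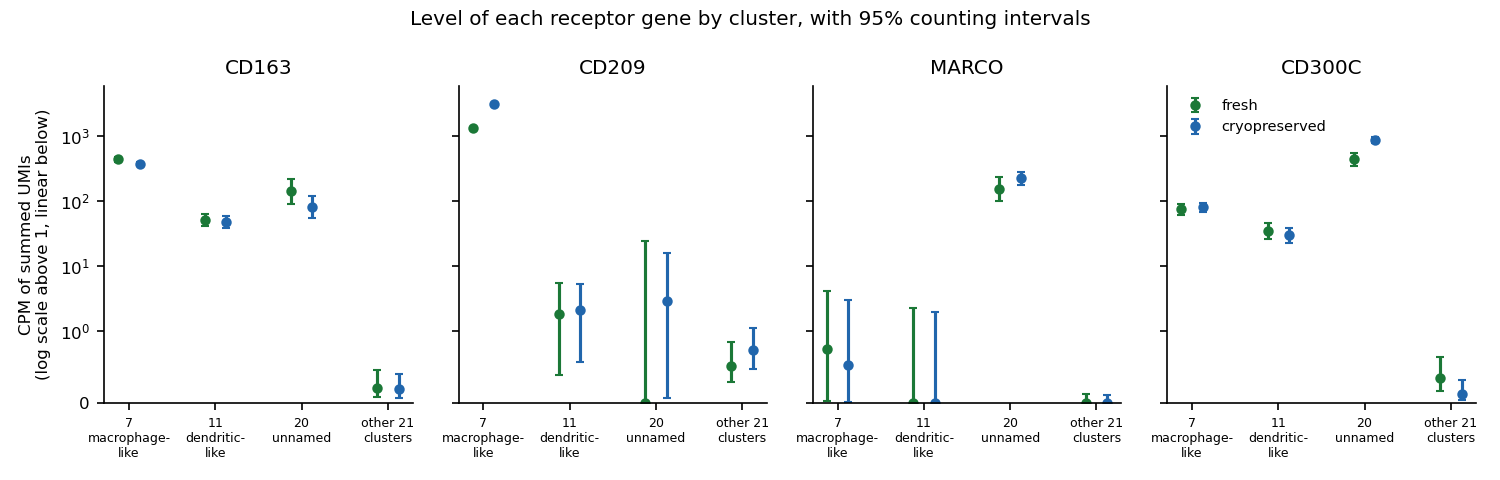
Level of each gene (y axis, CPM of summed UMIs, logarithmic above 1 and linear below) in cluster 7, cluster 11, cluster 20 and the other 21 clusters together (x axis), for the fresh (green) and cryopreserved (blue) library, with exact 95% Poisson intervals as bars. CD209 stands at 1335 and 3141 CPM in cluster 7 and at or under 2.85 CPM elsewhere, while MARCO and CD300C are highest in cluster 20.

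MARCO was found in 18 cells in all, with 106 UMIs. Of these cells 16 were in cluster 20, which held 24 of 25 fresh UMIs (96%) and 80 of 81 cryopreserved UMIs (98.8%), at 156 CPM (interval 99.96 to 232) and 228 CPM (interval 181 to 283). Cluster 7 had 1 UMI in each library, cluster 11 had none, and the other 21 clusters had none in 2514 and 3764 cells, where 3 UMIs would be 0.103 and 0.0922 CPM. Even in cluster 20 only 4 of 15 fresh cells and 12 of 44 cryopreserved cells had a MARCO UMI. In the fresh library the 5 cells held 15, 6, 2, 1 and 1 UMIs. In the cryopreserved library the 13 cells held 28, 15, 7, 7, 7, 4, 3, 3, 2, 2, 1, 1 and 1.

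Most MARCO cells also had CD300C and little or no C1q. CD300C was detected in 16 of the 18 cells, CD163 in 7 and CD209 in 1. No C1QA or C1QB UMI was found in 11 of them, and 5 were inside the gate. Outside the gate, 2 of 3 fresh and 10 of 10 cryopreserved MARCO cells had CD300C, against 0.979% and 1.15% of the cells without MARCO. The log2 odds ratios were 7.66 (interval 4.15 to 11.2) and 10.8 (interval 6.69 to 14.9), from 2 and 10 cells with both. With or without MARCO, 8 of 11 fresh and 32 of 34 cryopreserved cells of cluster 20 outside the gate had CD300C. These odds ratios therefore cannot separate a tie between MARCO and CD300C from membership of cluster 20. ITGAM, an integrin subunit of monocytes, neutrophils and macrophages, was detected in 16 of the 18. It is not particular to them, being detected in 64.1% of fresh and 56.1% of cryopreserved gated cells. Cluster 20 had 221 CPM of ITGAM against 141 in cluster 7 in the fresh library, and 165 against 141 in the cryopreserved one. The 2 cells without CD300C were both in cluster 7. One was fresh, with 10 CD163 UMIs, 5 C1q UMIs and 1 MARCO UMI, and the other was cryopreserved, with 51 CD209 UMIs, 180 C1q UMIs and 1 MARCO UMI.

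**Figure D5:**
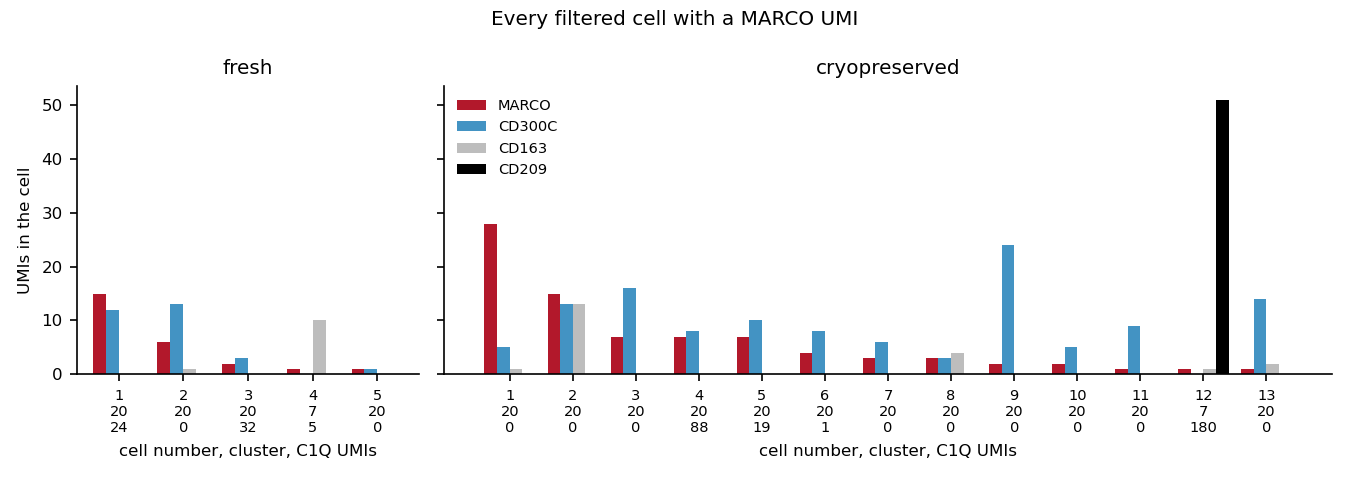
UMIs of MARCO, CD300C, CD163 and CD209 (y axis) in every filtered cell with a MARCO UMI, 5 fresh and 13 cryopreserved; under each bar group stand the number of the cell, its cluster and its C1QA + C1QB UMIs. MARCO reaches 15 UMIs in a fresh and 28 in a cryopreserved cell, and CD300C stands beside it in all 16 cells of cluster 20.

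The gate therefore held cells of more than 1 kind, and CD209 marked the division. Of the gated cells with a CD209 UMI, 87 of 88 fresh and 175 of 176 cryopreserved ones were in cluster 7, although CD209 was not used to form it. Of the gated cells without one, 11 of 29 and 17 of 45 were in cluster 7, 13 and 18 in cluster 11, and 4 and 10 in cluster 20. Depth moved with this split in no constant direction: the median was 11399.5 UMIs with and 13935 without CD209 in the fresh library, and 9258.5 and 7831 in the cryopreserved one. The median C1q count was 110 and 43 UMIs in the fresh library and 111.5 and 37 in the cryopreserved one. CD163 was detected in 89.8% of the gated cells with CD209 and 51.7% of those without in the fresh library, and in 86.4% and 28.9% in the cryopreserved one. Over all gated cells CD300C went the other way, with 84.8 CPM with CD209 and 158 without in the fresh library. In the cryopreserved one it had 82.5 and 222 CPM. The gated cells of cluster 20, which had no CD209, held 27 of these CD300C UMIs in 4 fresh cells and 63 in 10 cryopreserved cells. Within gated cells of cluster 7 the log2 odds ratio of CD209 with CD300C was -0.77 (interval -2.65 to 1.10) and 0.68 (interval -0.89 to 2.25), which gives no direction.

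Tissue macrophage genes were higher in the gated cells with CD209. Only 11 of 29 fresh and 17 of 45 cryopreserved gated cells without CD209 were in cluster 7, against nearly all of those with it. This split therefore cannot be told apart from cluster membership, here or for the dendritic and MHC class II genes below. Of 11 such genes with at least 50 UMIs, 7 were at least 2-fold higher in both libraries and none was lower, while 5.48% of 6328 genes were higher and 3.75% lower. LYVE1 had 177 UMIs in 88 fresh cells with CD209 (175 CPM) and 0 in the 29 cells without, which makes it at least 21.02-fold higher at a floor of 3 counts over the group. In the cryopreserved library it had 540 UMIs in 176 cells (325 CPM) and 0 in 45, at least 44.4-fold higher. FOLR2, a folate receptor of resident macrophages, had 724 and 27.7 CPM with and without CD209 in the fresh library, and 962 and 4.88 CPM in the cryopreserved one. SELENOP, a secreted selenium carrier, had 2250 and 531 CPM, and 2788 and 293 CPM. Of 9 other scavenger receptors 5 were higher and none was lower, and of 4 other lectins MRC1, SIGLEC1 and LGALS3 were higher and CLEC5A was lower.

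Genes of antigen-presenting dendritic cells were lower in the gated cells with CD209. Of 9 such genes 5 were at least 2-fold lower in both libraries (CCR7, CD86, CD80, FLT3 and BATF3) and none was higher. Over all 6328 genes 3.75% were lower and 5.48% higher in this split by CD209. CCR7, the receptor that leads cells to lymph nodes, had 29.6 CPM with and 875 CPM without CD209 in the fresh library, and 39.7 and 1418 CPM in the cryopreserved one. The costimulatory gene CD86 had 75.9 and 971 CPM, and 49.96 and 618 CPM. Of 7 MHC class II genes 4 were lower and none was higher. SLA-DRA had 1587 CPM with and 8906 without CD209 in the fresh library, and 899 and 11132 in the cryopreserved one. The same split by CD300C gave little: with 0.411% of genes 2-fold higher and 0.616% lower in both libraries, none of 9 scavenger receptors and none of 11 tissue macrophage genes passed in either direction, and 2 of 9 dendritic genes were lower.

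The cells of cluster 20, where MARCO and CD300C were highest, had less of most tissue macrophage genes than those of cluster 7. As a description of clusters that these genes helped to form, 8 of 11 tissue macrophage genes were at least 2-fold lower in cluster 20 than in cluster 7 in both libraries and none was higher, beside 8.36% lower and 5.59% higher over 6623 genes. FOLR2, LYVE1, TIMD4 and VSIG4 had no UMI there in either library, against 558, 137, 52.1 and 86.4 CPM in fresh cells of cluster 7. In cluster 11, CD163, CD209 and CD300C were at least 2-fold lower than in cluster 7 in both libraries, beside 8.8% of 7923 genes lower and 5.84% higher. Of 9 other scavenger receptors 5 were at least 2-fold lower in cluster 20 than in cluster 7 in both libraries, and none was higher. All 3 other lectins tested were lower as well. CD68 was among the lower ones, with 124 CPM in cluster 20 against 606 in the fresh library. SCARB2 differed less, with 605 CPM against 805. Of 3 monocyte and neutrophil genes tested, 1 was higher in cluster 20 and 1 was lower. VCAN, a proteoglycan that monocytes and fibroblasts make, had 546 CPM in cluster 20 and 23.1 in cluster 7 in the fresh library, and 584 and 27.5 CPM in the cryopreserved one. CD14, a receptor for bacterial lipopolysaccharide, went the other way, with 143 and 495 CPM in the fresh library and 151 and 506 CPM in the cryopreserved one.

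The genes most like each member were found by Pearson's r of log2(CPM + 1) over 48 profiles, which are 24 clusters in 2 libraries, among 11692 genes with at least 200 UMIs. The profiles share libraries and most of them hold no myeloid cells, so r is a description. For CD209 the nearest were TIMD4 (0.89), a receptor for dying cells, VSIG4 (0.89), a complement receptor, ENSSSCG00000031640 (0.85) and the chemokines CCL8 (0.85) and CCL14 (0.80). For CD163 they were the adaptor SCIMP (0.97), ENSSSCG00000037137 (0.97), the chemokine receptor CCR1 (0.96), C1QC (0.96) and ENSSSCG00000039214 (0.96). For CD300C they were the inflammatory protease CASP1 (0.98), ENSSSCG00000020967 (0.98), ENSSSCG00000029414 (0.98), NFAM1 (0.97) and the phagosomal metal transporter SLC11A1 (0.96). For MARCO they were ENSSSCG00000029414 (0.86), TARDBP (0.78), CD300C (0.78), SLC11A1 (0.78) and SDS (0.77), resting on 106 MARCO UMIs. Between members r was 0.93 for CD163 and CD300C, 0.72 for CD163 and CD209, 0.51 for CD209 and CD300C, and 0.09 for CD209 and MARCO.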

How the data were processed

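Skin cells of pigs were sorted by FACS to remove dead cells and profiled with the 10x Genomics 3′ kit. Per the labels, the authors mapped and counted reads with Cell Ranger 4.0.0, which runs STAR 2.5.1b, on Sscrofa11.1, and deposited whole-number counts of UMIs per gene and barcode, without normalization. Of 2 libraries, 1 is fresh and 1 cryopreserved, so no p-value is given. Cells were kept with at most 4500 genes, 30000 UMIs and 10% of UMIs on 13 mitochondrial genes. Gated cells had at least 10 UMIs of C1QA and C1QB. The libraries were integrated with Seurat 5.3.0 (R 4.3.3; 2000 features, 30 dimensions, resolution 0.8) after removing the members, C1QA and C1QB from the features. A cluster took a name from the list with most markers raised at least 2-fold and found in at least 10% of cells, if at least 3 were and no list tied with it. Summed counts were scaled to CPM by total UMIs, and between libraries with TMM factors (edgeR 4.0.16) over genes with at least 20 UMIs. The ratio step was run on simulated counts with counting error only, which checks the calculation and not the spread between cells or libraries. DESeq2 1.42.0 size factors, other gates and filters and thinning were alternatives. Shares have exact binomial, levels exact Poisson and ratios exact conditional 95% intervals (SciPy 1.17.1), and odds ratios Woolf intervals, with 0.5 added to each count where 1 was 0. Doublets were scored with Scrublet (scanpy 1.11.5). Lists were compared with 5 CPM added. Genes are named as members, as the gate, as up to 4 genes of each list with the highest mean CPM in gated cells, as the 5 most like each member, or as a count's 5 or fewer members. MSR1, LYVE1, FOLR2, TIMD4, VSIG4, VCAN, CD14, CD207, SLA-DRA and ITGAM were also named after their values were seen. The split of gated cells by CD209 or CD300C and the promoter motifs were likewise chosen after values were seen. The members and lists were chosen with earlier results of these data known. 3′ counting sees the ends of transcripts, and low counts limit MARCO most.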

Additional observations from a re-analysis of the deposited data

How the results depend on the processing

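Of 230 values computed under alternatives, 196 stayed within the counting interval of the reported value, 33 lay outside it and 1 reversed. Reversed means a changed sign where the reported interval gave a direction. Values whose reported interval gave none could change sign without being counted so. Among these were the MARCO difference between libraries and CD209 with CD300C inside the gate in the cryopreserved library. With the gate at 5 UMIs, the share of CD163 UMIs inside was 86.6% in fresh and 84.4% in cryopreserved cells and that of CD209 98.0% and 99.1%. With the gate at 20 UMIs the CD163 shares were 68.5% and 76.0%, the CD209 shares 91.5% and 96.5%, the cryopreserved MARCO share 9.88%, and the CD163 log2 difference between libraries -0.086. Thinning to 1000 UMIs gave shares of 85.5% and 68.75% for CD163, 93.1% and 94.0% for CD209, and 76.5% and 26.9% for CD300C. Without high Scrublet scores the fresh shares were 82.9% for CD163 and 69.5% for CD300C, and for cryopreserved CD209 the share was 97.3% over all barcodes and 97.2% without the mitochondrial limit. Scaling by total UMIs gave a CD209 log2 difference of 1.18, and leaving out the top cell a MARCO difference of 1.498 and, as an alternative chosen after seeing the data, a fresh MARCO share of 20%. After thinning, the log2 odds ratio of CD163 with CD209 was 0.46 and 0.60 inside the gate and 6.55 and 7.15 outside, that of CD163 with CD300C reversed to 0.77 inside in the cryopreserved library and was 2.83 outside, that of CD209 with CD300C was 4.79 outside in the fresh library, and that of MARCO with CD300C was 5.65 inside in the cryopreserved one. In gated cells of the macrophage-like cluster alone, chosen after seeing the data, it was 2.14 for CD163 with CD209 in the cryopreserved library, 1.92 for CD163 with CD300C in the fresh one, and 0.68 for CD209 with CD300C in the cryopreserved one. A higher gate leaves fewer cells inside and thinning fewer UMIs, and otherwise the cause was not tested. Keeping the members in the clustering or lowering its resolution to 0.4 left each member's leading cluster with a share of its UMIs within the counting interval. The leading cluster is the one with most UMIs of the gene. For CD300C in the fresh library this was cluster 7 and not cluster 20, where its CPM was highest. The check therefore does not cover the fresh CD300C level of cluster 20. No paired analysis was possible because each condition is 1 library.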

Other observations

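Barcodes outside the study's limits also carried the receptors. Without any limit, 132 fresh and 234 cryopreserved barcodes passed the C1q gate, against 117 and 221 filtered cells. CD209 had 6397 UMIs in all cryopreserved barcodes, 6227 of them in gated ones, against 5969 and 5846 in filtered cells.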
